A study of Homo sapiens with 12 samples.

Results

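The deoxynucleotide supply genes described here are 9 genes that make, activate or remove the building blocks of DNA: RRM1, RRM2, RRM2B, TYMS, TK1, DUT, DCK, DTYMK and SAMHD1. They were taken by name, through their Ensembl identifiers, from a table of 57773 gene identifiers, and all 9 were found. RNA was sequenced from RPE1 cells, an immortalised human retinal pigment epithelial line, in 12 libraries. The groups were cells treated with siRNA against Anillin and sorted at a DNA content of 4N (Anillin 4N) or 2N (Anillin 2N), and cells treated with a non-targeting siRNA and sorted at 4N (control 4N) or 2N (control 2N), with 3 libraries each. All cells were of the same line, were transfected for 24 h with Lipofectamine RNAiMAX and had their DNA labelled for 60 min with 2 µg/mL of the dye Hoechst 33342 before the sort. Anillin (ANLN) is a scaffold of the contractile ring, and its loss makes cytokinesis fail. A 4N sort takes cells that have copied their DNA, in G2 or mitosis, and in cultures where division failed also tetraploid cells in G1.

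Cells need balanced pools of the deoxynucleotide triphosphates to copy and repair DNA. Ribonucleotide reductase makes deoxynucleotides from ribonucleotides, with the large catalytic subunit RRM1 and a small subunit that is either RRM2, which is made in cycling cells, or RRM2B, which is induced by p53. Thymidylate is made from deoxyuridylate by TYMS or salvaged from thymidine by TK1, and deoxycytidine is salvaged by DCK. DTYMK adds the next phosphate to thymidylate, DUT breaks down dUTP to keep uracil out of DNA, and SAMHD1 breaks down deoxynucleotide triphosphates.

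In GENCODE 29 on GRCh38, all 9 are protein-coding genes. RRM1 (ENSG00000167325) lies at chr11:4094707-4138876 and RRM2 (ENSG00000171848) at chr2:10120698-10131419. RRM2B has the identifier ENSG00000048392. TYMS (ENSG00000176890) lies at chr18:657604-673578, TK1 (ENSG00000167900) at chr17:78174075-78187233 and DTYMK (ENSG00000168393) at chr2:241675742-241686991. DUT (ENSG00000128951) lies at chr15:48331011-48343373, DCK (ENSG00000156136) at chr4:70992538-71030914 and SAMHD1 (ENSG00000101347) at chr20:36889773-36951901.

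The 250 bases before the annotated start were available in RefSeq (GRCh38.p14) for 8 of the 9 genes, in 13 windows. They are shown for RRM2 and for the thymidylate genes TK1, TYMS and DTYMK, which fell after Anillin siRNA in 4N cells, and for SAMHD1, whose level did not pass the test in any comparison. For RRM2 and TK1, which have several windows, the one with the most motif matches is shown. A RefSeq start can lie inside the GENCODE span given above. Each reads 5′ to 3′ on the strand of the gene, and capitals mark matches to the CCAAT box (CCAAT), to E2F-like motifs and to cell cycle homology region motifs, searched on both strands. The E2F-like motifs were TTGGCGC with the related forms TTCCCGC and further TTCGCGC and also TTGCCGC. The cell cycle homology region was searched as TTTGAA and as TTCGAA. No match overlapped another.
RRM2, chr2:10122489-10122738, plus strand: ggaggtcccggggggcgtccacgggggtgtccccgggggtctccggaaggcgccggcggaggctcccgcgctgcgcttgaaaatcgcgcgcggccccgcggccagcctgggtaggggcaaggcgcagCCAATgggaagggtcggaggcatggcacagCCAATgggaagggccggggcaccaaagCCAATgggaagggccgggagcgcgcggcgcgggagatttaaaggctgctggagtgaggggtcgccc
TK1, chr17:78187053-78187302, minus strand: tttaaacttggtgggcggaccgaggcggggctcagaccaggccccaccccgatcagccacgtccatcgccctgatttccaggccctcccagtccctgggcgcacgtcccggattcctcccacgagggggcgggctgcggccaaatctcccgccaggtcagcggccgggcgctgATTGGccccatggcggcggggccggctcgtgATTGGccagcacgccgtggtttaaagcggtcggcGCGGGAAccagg
TYMS, chr18:657403-657652, plus strand: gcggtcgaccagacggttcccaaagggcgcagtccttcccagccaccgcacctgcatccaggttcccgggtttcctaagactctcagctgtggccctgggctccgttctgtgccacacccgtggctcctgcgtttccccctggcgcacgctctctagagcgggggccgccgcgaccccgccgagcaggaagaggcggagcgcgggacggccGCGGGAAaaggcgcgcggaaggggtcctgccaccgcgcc
DTYMK, chr2:241686816-241687065, minus strand: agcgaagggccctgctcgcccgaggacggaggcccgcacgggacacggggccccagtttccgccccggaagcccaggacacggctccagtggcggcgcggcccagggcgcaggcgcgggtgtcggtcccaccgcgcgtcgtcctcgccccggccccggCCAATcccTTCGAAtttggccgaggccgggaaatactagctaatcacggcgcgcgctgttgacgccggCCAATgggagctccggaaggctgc
SAMHD1, chr20:36951709-36951958, minus strand: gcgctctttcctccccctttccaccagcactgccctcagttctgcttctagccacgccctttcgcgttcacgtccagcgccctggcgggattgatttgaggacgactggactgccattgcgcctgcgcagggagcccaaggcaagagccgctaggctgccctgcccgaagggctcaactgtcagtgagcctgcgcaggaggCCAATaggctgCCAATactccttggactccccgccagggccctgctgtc

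The RRM2 window held 3 CCAAT boxes, the TK1 window 2 CCAAT boxes and 1 E2F-like motif, and the TYMS window 1 E2F-like motif. DTYMK had 2 CCAAT boxes and 1 cell cycle homology region motif, and SAMHD1 had 2 CCAAT boxes. Of the windows not shown, that of DCK held 2 E2F-like motifs, that of RRM1 1 motif of each kind, and 1 of 4 DUT windows held 2 E2F-like and 2 cell cycle homology region motifs. A second RRM2 window, which overlaps the one shown, held 1 E2F-like motif and 1 CCAAT box. A second TK1 window and the other 3 of DUT held none. Of all 35116 windows of this length, 32.0% held a CCAAT box, 10.9% an E2F-like motif and 14.3% a cell cycle homology region motif. These matches are descriptions of letters, and binding was not measured.

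The authors deposited RPKM, read counts scaled to gene length and library size, and for most genes the length they divided by was the whole span of the gene with its introns. A library held 17412742 to 61760450 reads, recovered from the RPKM, and the 9 genes had between 386 and 12336 reads in a library. Tests were run with limma on log2(RPKM + 0.5) over 12892 genes, of which all 9 members are part, and log2 changes are given ± SE with p-values adjusted over all genes tested. The labels call the libraries biological replicates without naming separate cultures, so the p-values here reflect the spread among these libraries, which may be technical. ANLN, the siRNA target, had a mean of 0.0848 ± 0.0144 RPKM in the Anillin 4N libraries and of 0.0609 ± 0.0229 in the Anillin 2N libraries, against 7.95 ± 0.485 in control 4N and 1.60 ± 0.322 in control 2N (SD, n = 3 each). Of 9 markers of retinal pigment epithelium 7, RPE65 and MITF among them, were under 0.5 RPKM in every library, and the others were KRT8 and KRT18. Of 6 blood markers 5 were under 0.5 RPKM, CD3E and HBB were at 0, and CD68 averaged 15.1 RPKM. All 6 markers of other epithelia and muscle were under 0.5 RPKM. On gene span a long gene can lie under 0.5 RPKM with many reads, so values above 0 do not show absence. The library control 2N replicate 2 stood apart from the other control 2N libraries: its RRM2, TK1, TYMS and DTYMK levels were 0.623, 0.665, 0.665 and 0.698 times the mean of replicates 1 and 3, and its RRM2B level 1.16 times. Control 4N replicate 2 was likewise the lowest of its group in all of the 9 genes but RRM2B, in which it was the highest. Its chi-square per degree of freedom was 7.56 and 6.43 with the other control 4N libraries, against 3.05 between those. For control 2N replicate 2 it was 11.4 and 14.5, against 5.69. The summed RPKM of 8 G2 and mitosis genes was 27.1 in control 2N replicate 2, against 40.7 and 35.6 in the other 2, and that of 8 G1/S genes was 13.5, against 20.5 and 20.2. Such sums weigh the genes with the highest RPKM most, which were CDC20 and PCNA, at means of 22.65 and 8.06 RPKM over all libraries. CCNE1 of the G1/S list was under 0.5 RPKM in every library.

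In the main comparison, of cells sorted at 4N after Anillin siRNA with the 4N cells of control cultures, 7 of the 9 genes fell, RRM2B rose and SAMHD1 did not pass the test. RRM2 was at 0.169 times its control level, TK1 at 0.312, RRM1 at 0.331, TYMS at 0.366 and DTYMK at 0.384 times, while DUT and DCK were at 0.512 and 0.511 times. Over all genes tested 51.5% passed, 31.5% as lower and 20.0% as higher in Anillin 4N. The median log2 change of the 9 genes was -1.25, against -0.05 for all genes tested. In a sorted population, fewer cells that express a gene and less RNA per cell cannot be told apart. The summed RPKM of the 8 G2 and mitosis genes was 34.3 to 37.1 in Anillin 4N and 233 to 267 in control 4N, with all 8 lower. That of 8 G1/S genes was 10.4 to 11.5 in Anillin 4N and 20.4 to 25.6 in control 4N, with 7 of 7 tested lower. The part of cell cycle phase in the changes of the 9 genes was not tested.

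RRM2, the small subunit of ribonucleotide reductase in cycling cells, had the largest fall of the 9. Its level was 5.06, 4.92 and 5.43 RPKM in the Anillin 4N libraries and 3.16, 2.88 and 2.77 RPKM in those of Anillin 2N. It was 33.3, 26.6 and 31.1 RPKM in control 4N and 12.8, 7.71 and 12.0 in control 2N. Every Anillin siRNA library thus lay below every control library, and within each siRNA the 4N libraries lay above the 2N libraries. The log2 change was -2.45 ± 0.16 among 4N cells (adjusted p = 1.43e-06) and -1.69 ± 0.16 among 2N cells (adjusted p = 0.000106). In the control cultures RRM2 was 1.47 ± 0.16 higher at 4N than at 2N (adjusted p = 9.57e-05).

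RRM1, the large subunit that carries the active site, moved the same way with a smaller range. The Anillin 4N libraries had 1.22, 1.42 and 1.49 RPKM and the Anillin 2N libraries 1.07, 1.04 and 1.07. The control 4N libraries had 4.45, 3.87 and 4.14 RPKM and the control 2N libraries 2.25, 1.63 and 2.13. None of the 4 groups overlapped. Its log2 change was -1.31 ± 0.09 in the 4N comparison (adjusted p = 2.40e-06) and -0.67 ± 0.09 in the 2N comparison (adjusted p = 0.000705). The added 0.5 RPKM shrinks these changes, which were -1.58 and -0.91 on recovered reads. RRM2 shares 8681 bases of its span with AC007240.1 on the same strand, so reads there may belong to either gene. RRM1 shares 1142 with RRM1-AS1 on the opposite strand, where reads could not be told apart if counting ignored strand.

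RRM2B, the p53-induced small subunit, was the only one of the 9 called higher in Anillin 4N than in control 4N cells. It had 2.27, 2.03 and 1.99 RPKM in Anillin 4N, all above the 9 other libraries. Its level was 1.53, 1.66 and 1.64 RPKM in Anillin 2N, 1.498, 1.647 and 1.559 in control 4N and 1.583, 1.782 and 1.497 in control 2N. These 3 groups overlapped. The rise was 0.33 ± 0.06 on the log2 scale against control 4N (adjusted p = 0.00101) and 0.29 ± 0.06 against control 2N (adjusted p = 0.00439). Among 2N cells the difference after Anillin siRNA was -0.00 ± 0.06 (adjusted p = 0.964). The p53 targets CDKN1A, which encodes p21, and MDM2, the ubiquitin ligase of p53, were 2.74 and 2.71 times as high in Anillin 4N as in control 4N, against 1.34 times for RRM2B. Between Anillin 2N and control 2N cells the ratios were 1.58 for CDKN1A and 1.19 for MDM2, against 0.994 for RRM2B. All 4 differences of CDKN1A and MDM2 passed the test.

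**Figure D1:**
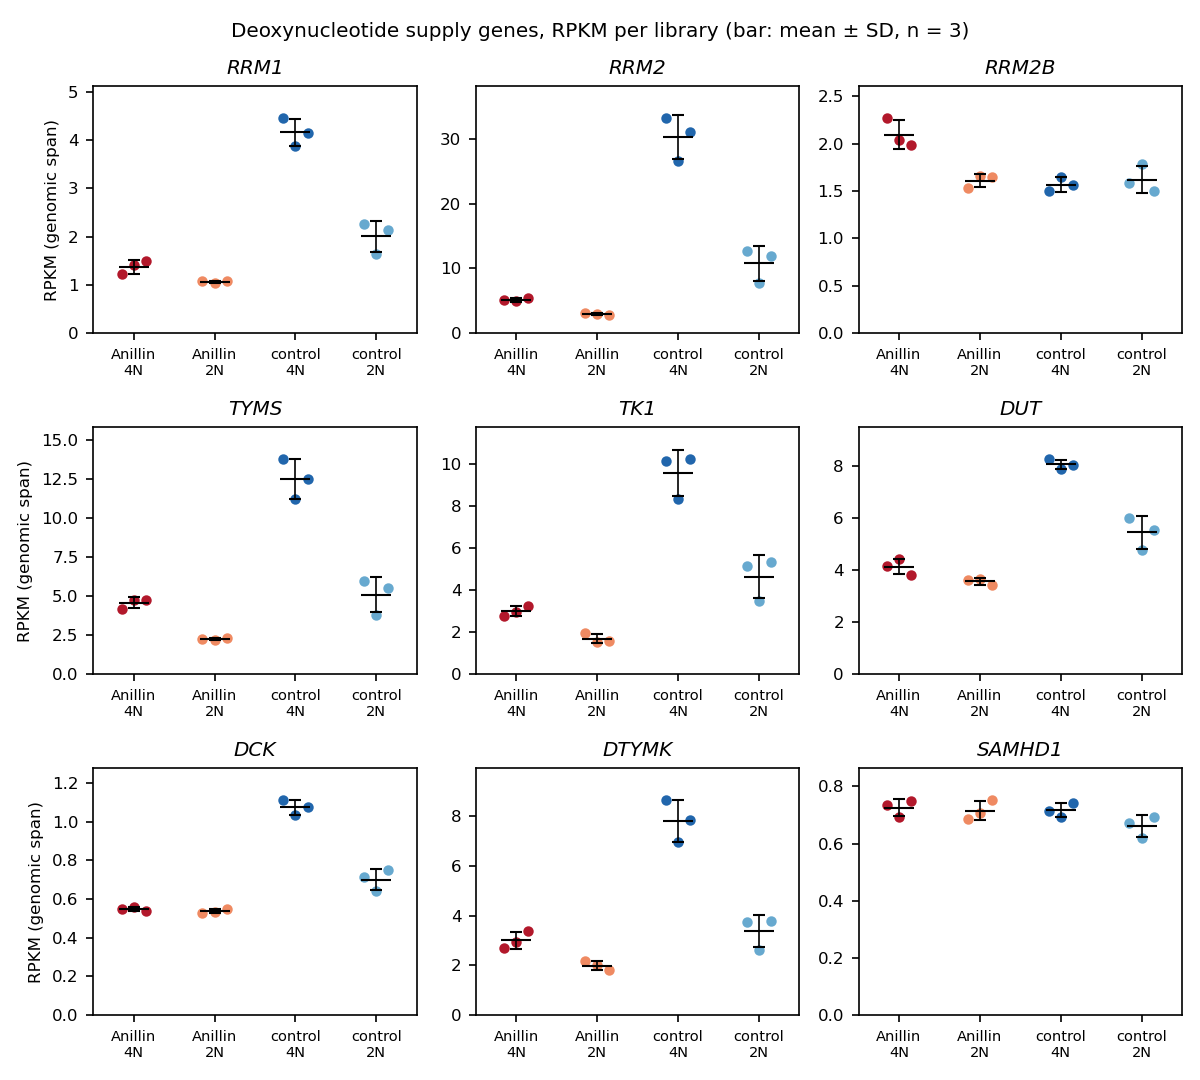
RPKM of the 9 deoxynucleotide supply genes in each of the 12 libraries, with 1 panel per gene and its own axis from 0. Points are libraries, bars the mean ± SD of 3, and the Anillin 4N points of RRM2B, at 1.99 to 2.27 RPKM, lie above its other 9.

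The thymidylate enzymes fell together in the 4N comparison. TYMS, which methylates deoxyuridylate, had 4.16, 4.77 and 4.78 RPKM in Anillin 4N libraries and 2.24, 2.20 and 2.29 RPKM in those of Anillin 2N. It had 13.8, 11.2 and 12.5 RPKM in control 4N and 5.95, 3.81 and 5.51 in control 2N. Anillin 4N thus overlapped control 2N and no other group. The log2 change was -1.36 ± 0.13 among 4N cells (adjusted p = 2.32e-05) and -1.01 ± 0.13 among 2N cells (adjusted p = 0.000627). TYMS shares 3255 bases of its span with ENOSF1 and 737 with TYMSOS, both on the opposite strand, and reads there could not be told apart where counting ignored strand.

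TK1, the cytosolic thymidine kinase, was at 2.77, 2.95 and 3.23 RPKM in Anillin 4N libraries and 1.93, 1.53 and 1.57 RPKM in those of Anillin 2N. Control 4N libraries had 10.1, 8.32 and 10.2 RPKM and control 2N libraries 5.12, 3.47 and 5.31. The groups did not overlap. The log2 change of TK1 was -1.53 ± 0.14 in the 4N comparison (adjusted p = 1.695e-05) and -1.22 ± 0.14 in the 2N comparison (adjusted p = 0.000325). DTYMK, the thymidylate kinase, ranged over 2.68 to 3.36 RPKM in Anillin 4N, 1.796 to 2.165 in Anillin 2N, 6.95 to 8.64 in control 4N and 2.62 to 3.77 in control 2N. As for TYMS, its Anillin 4N and control 2N libraries overlapped. Its log2 changes were -1.25 ± 0.13 at 4N (adjusted p = 3.18e-05) and -0.63 ± 0.13 at 2N (adjusted p = 0.00599).

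DUT, the dUTPase, had 3.82 to 4.40 RPKM in Anillin 4N, 3.43 to 3.67 in Anillin 2N, 7.88 to 8.25 in control 4N and 4.77 to 6.01 in control 2N. Its groups did not overlap, and the log2 change was -0.89 ± 0.07 among 4N cells (adjusted p = 6.87e-06) and -0.54 ± 0.07 among 2N cells (adjusted p = 0.000653). DCK, the deoxycytidine kinase, was low on this scale, at 0.539 to 0.560 RPKM in Anillin 4N, 0.530 to 0.550 in Anillin 2N, 1.03 to 1.11 in control 4N and 0.640 to 0.750 in control 2N. The 2 Anillin groups overlapped, and both lay below both control groups. The added 0.5 RPKM shrinks its log2 changes: they were -0.59 ± 0.04 among 4N cells (adjusted p = 1.38e-06) and -0.21 ± 0.04 among 2N cells (adjusted p = 0.00287), against -0.97 and -0.40 on recovered reads. DCK shares 29912 bases of its span with MOB1B on the same strand, so reads there may belong to either gene.

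SAMHD1, the triphosphohydrolase, was the most even of the 9 across the groups. Anillin 4N libraries had 0.736, 0.692 and 0.748 RPKM and Anillin 2N libraries 0.685, 0.707 and 0.752. Control 4N libraries had 0.714, 0.694 and 0.742 RPKM and control 2N libraries 0.673, 0.619 and 0.692. Each group overlapped its neighbour in the order of levels, and 4463 bases of the span are shared with TLDC2 on the opposite strand. The log2 difference of Anillin 4N from control 4N was 0.01 ± 0.04 (adjusted p = 0.845) and that of Anillin 2N from control 2N 0.06 ± 0.04 (adjusted p = 0.231). On recovered reads these differences were 0.02 ± 0.06 and 0.10 ± 0.06.

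Among cells sorted at 2N, the same 7 genes fell after Anillin siRNA as among 4N cells, while RRM2B and SAMHD1 did not pass the test. Over all genes tested 28.6% passed, 17.1% as lower and 11.4% as higher. The levels in Anillin 2N cells were 0.271 times those in control 2N for RRM2, 0.363 for TK1, 0.441 for TYMS, 0.529 for RRM1, 0.589 for DTYMK, 0.655 for DUT and 0.767 for DCK. All 7 calls held without control 2N replicate 2, with log2 changes of -1.91 for RRM2 and -0.25 for DCK. The summed RPKM of the G2 and mitosis genes was 10.6 to 11.4 in Anillin 2N and 27.1 to 40.7 in control 2N, and that of the G1/S genes 9.32 to 9.76 in Anillin 2N and 13.5 to 20.5 in control 2N. What part these had was not tested.

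Within the control cultures, 4N cells had more of the same 7 RNAs than 2N cells, where 37.1% of all genes tested passed, 23.9% as higher and 13.2% as lower. RRM2 was 2.80 times as high at 4N as at 2N, TYMS 2.46, DTYMK 2.31, RRM1 2.08, TK1 2.06, DCK 1.53 and DUT 1.48 times. RRM2B was at 0.968 times (adjusted p = 0.673) and SAMHD1 at 1.08 times (adjusted p = 0.184). All 8 G2 and mitosis genes were higher at 4N as well, and of 7 tested G1/S genes 2 were higher and 1 lower, and their part was not tested. This comparison shares its libraries with both siRNA comparisons.

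Within the Anillin siRNA cultures, 4 of the 9 genes were higher in 4N than in 2N cells, where 3.58% of all genes tested passed, 2.61% as higher and 0.970% as lower. TYMS rose by 0.88 ± 0.13 on the log2 scale (adjusted p = 0.00589), RRM2 by 0.71 ± 0.16 (adjusted p = 0.0400), TK1 by 0.68 ± 0.14 (adjusted p = 0.0331) and RRM2B by 0.30 ± 0.06 (adjusted p = 0.0218). The calls of the last 3 were near the threshold. Leaving out whichever single library of the 6 ended the call of RRM2 (adjusted p = 0.0758 to 0.133). The call of RRM2B held only without Anillin 4N replicate 3 (0.0592 to 0.0749 in the other 5) and that of TK1 only without Anillin 2N replicate 1 (0.0680 to 0.123 in the other 5). Without the filter RRM2, TK1 and RRM2B did not pass (0.0991, 0.0858 and 0.0557), nor did RRM2 with a pseudocount of 1 (0.0532), or RRM2B with quantile or median-of-ratios scaling or in a fit of these groups alone (0.0628, 0.0606 and 0.0580). TYMS kept its call in each of these fits. DTYMK was at 0.49 ± 0.13 (adjusted p = 0.0783), RRM1 at 0.26 ± 0.09 (adjusted p = 0.185), DUT at 0.19 ± 0.07 (adjusted p = 0.242) and DCK at 0.02 ± 0.04 (adjusted p = 0.872). By voom on recovered reads the calls of RRM2, TK1 and RRM2B held (adjusted p = 0.00287, 0.00151 and 0.00202). There DTYMK and RRM1 passed as well (0.60, adjusted p = 0.0102, and 0.38, adjusted p = 0.0352). The 8 G2 and mitosis genes summed to 34.3 to 37.1 RPKM in Anillin 4N and 10.6 to 11.4 in Anillin 2N, with all 8 higher. Of 7 tested G1/S genes none was higher and 1 was lower, with a median log2 change of -0.13, and the part of either list was not tested.

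Set against control 2N cells, Anillin 4N cells had lower RRM2, RRM1, TK1, DUT and DCK and higher RRM2B, where 29.9% of all genes tested passed, 15.8% as lower and 14.1% as higher. The summed G2 and mitosis levels overlapped here, at 34.3 to 37.1 RPKM in Anillin 4N and 27.1 to 40.7 in control 2N, while that of the G1/S genes was 10.4 to 11.5 in Anillin 4N and 13.5 to 20.5 in control 2N. RRM2 was at 0.474 times its control 2N level (log2 change -0.98 ± 0.16, adjusted p = 0.00154) and RRM1 at 0.686 times (-0.41 ± 0.09, adjusted p = 0.00833). TK1 changed by -0.54 ± 0.14 (adjusted p = 0.0188), a call lost without Anillin 4N replicate 1 or 2 or control 2N replicate 1 or 3 (adjusted p = 0.0527 to 0.0683). TYMS and DTYMK were at 0.898 and 0.888 times (adjusted p = 0.539 and 0.463). In a fit of these groups alone RRM1 and TK1 lost their calls (0.0546 and 0.0636). Without control 2N replicate 2, TYMS passed as lower (-0.30, adjusted p = 0.0291).

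**Figure D2:**
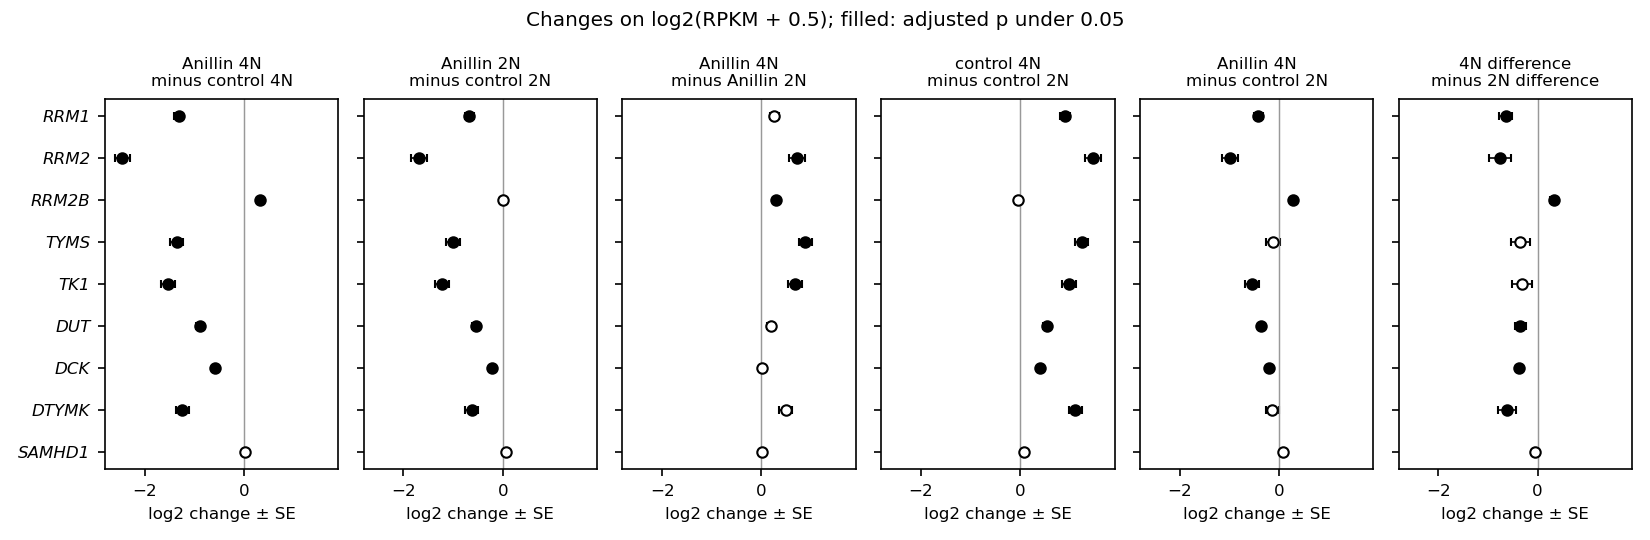
Log2 change ± SE of each gene on log2(RPKM + 0.5) in the 5 comparisons of groups and in the difference between the siRNA comparisons at 4N and 2N. Filled points have an adjusted p under 0.05, and RRM2 lies farthest left in the first panel, at -2.45.

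The siRNA difference was larger at 4N than at 2N for some of the genes. The interaction, which is the 4N difference minus the 2N difference, passed as lower for 5 genes and as higher for 1, where 15.7% of all genes tested passed, 10.7% as lower and 4.93% as higher. It was -0.38 ± 0.05 for DCK (adjusted p = 0.00159; -0.57 ± 0.09 on recovered reads), -0.64 ± 0.13 for RRM1 (adjusted p = 0.0102) and 0.33 ± 0.08 for RRM2B (adjusted p = 0.0241). RRM2B lost this call without Anillin 2N replicate 1 or control 4N replicate 1 or 3 (adjusted p = 0.0537 to 0.0641). Those of RRM2 (-0.76 ± 0.23), DTYMK (-0.62 ± 0.18) and DUT (-0.35 ± 0.10) were at the threshold, with adjusted p = 0.0492, 0.0486 and 0.0498. RRM2 lost its call when any 1 Anillin siRNA library or control 4N replicate 1 or 3 was left out (adjusted p = 0.0715 to 0.116). DTYMK lost its call without any Anillin siRNA library but Anillin 4N replicate 3, and without control 4N replicate 1 or 3 or control 2N replicate 2 (0.0566 to 0.115). DUT lost its call without any 1 library but control 2N replicate 1 (0.0522 to 0.113). Without the filter only RRM1 and DCK passed, and with a pseudocount of 0.1 or quantile scaling only these and RRM2B did. With median-of-ratios scaling DUT did not pass (0.0582). The interactions of TYMS (-0.35 ± 0.19) and TK1 (-0.31 ± 0.20) did not pass (adjusted p = 0.253 and 0.351), and were -0.17 and -0.13 without control 2N replicate 2. All 8 G2 and mitosis genes had an interaction called lower and 1 of 7 G1/S genes one called higher, and their part was not tested.

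The balance of the small subunits was read from the ratio of RRM2 to RRM2B RPKM in each library, in which the library scaling cancels. The Anillin 4N libraries had ratios of 2.23, 2.42 and 2.73 and the Anillin 2N libraries 2.07, 1.73 and 1.68, against 22.2, 16.1 and 20.0 in control 4N and 8.07, 4.33 and 8.02 in control 2N. No groups overlapped. Anillin 4N was at 0.127 times control 4N and Anillin 2N at 0.278 times control 2N. With 3 libraries against 3 the exact two-sided permutation test cannot go below p = 0.1, and it gave that value in both pairs (0.107 when adjusted over 3 ratios in 5 pairs of groups).

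Because the 2 genes differ in span, levels between them were compared in reads per kilobase of the principal transcript, scaled to library size as RPKM is. No source states whether reads in introns were counted. Such reads could raise RRM2B more than RRM2 on this scale. The authors' length of RRM2B is 34617 bases for a transcript of 4931, and that of RRM2 9091 for 3431. Which of the 2 genes has more transcript is thus uncertain. On that scale RRM2 averaged 13.6 ± 0.701 and RRM2B 14.7 ± 1.06 in Anillin 4N. In Anillin 2N the values were 7.78 ± 0.526 for RRM2 and 11.3 ± 0.516 for RRM2B. In control 4N the values were 80.4 ± 9.05 for RRM2 and 11.0 ± 0.529 for RRM2B, and in control 2N 28.7 ± 7.22 and 11.4 ± 1.03 (SD, n = 3 each). The ratio on this scale was 0.841, 0.913 and 1.03 in the Anillin 4N libraries and 0.636 to 0.780 in Anillin 2N, against 6.09 to 8.39 in control 4N and 1.63 to 3.05 in control 2N. With all annotated exons merged as the length it was 0.610 to 0.748 in Anillin 4N and 0.461 to 0.566 in Anillin 2N, against 4.42 to 6.09 in control 4N and 1.19 to 2.21 in control 2N. RRM1 averaged 19.7 in Anillin 4N and 15.2 in Anillin 2N, against 59.7 in control 4N and 28.8 in control 2N, per principal transcript kilobase.

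**Figure D3:**
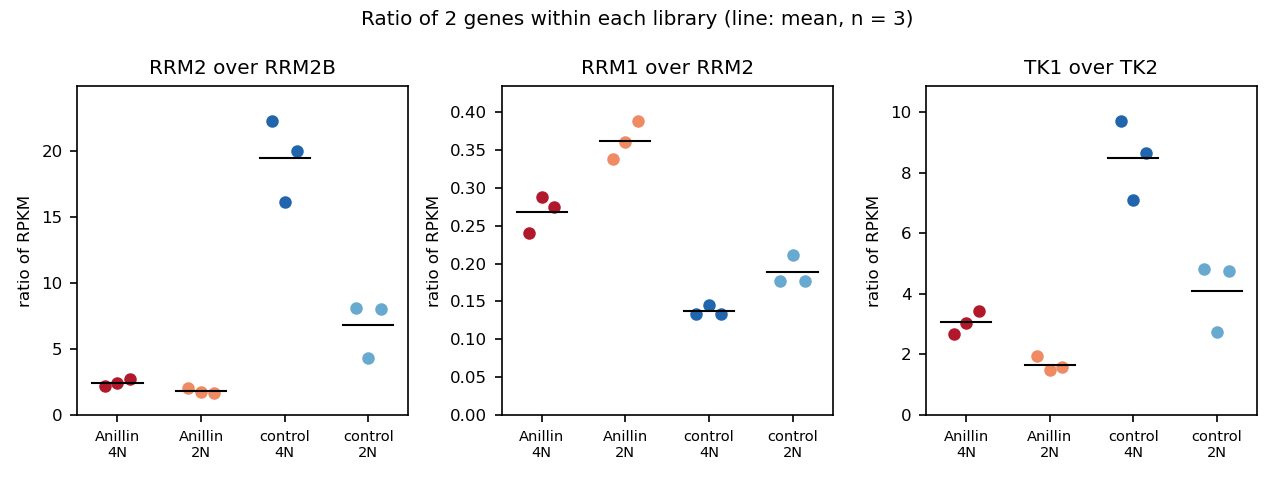
Ratios of RPKM of RRM2 to RRM2B, RRM1 to RRM2 and TK1 to TK2 in each library, with lines at the mean of 3. RRM2 over RRM2B lies at 1.68 to 2.73 in the Anillin siRNA libraries and at 4.33 to 22.2 in the control libraries.

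The large and small subunits did not keep a fixed ratio. RRM1 over RRM2 averaged 0.268 in Anillin 4N and 0.362 in Anillin 2N, against 0.138 in control 4N and 0.188 in control 2N, so RRM2 differed more than RRM1 between siRNAs at both DNA contents. TK1 was also set against TK2, the mitochondrial thymidine kinase. The ratio averaged 3.06 in Anillin 4N and 1.67 in Anillin 2N, against 8.49 in control 4N and 4.11 in control 2N. TK2 itself was at 0.978 ± 0.0458 RPKM in Anillin 4N and 1.13 ± 0.0752 in control 4N. For both ratios the siRNA groups at each DNA content did not overlap, and the exact two-sided permutation test gave p = 0.1, the smallest it can give.

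Genes that feed, activate or clear these pools were described through 8 lists with 61 genes, of which 48 passed the filter on RPKM and were tested. As RPKM was mostly on the whole span, a long gene that did not pass need not have few reads. Between Anillin 4N and control 4N 32 of them fell, 4 rose and 12 did not pass, where 31.5% of all genes tested were lower and 20.0% higher, with a median log2 change of -0.28, against -0.05 for all genes tested. All 5 tested folate cycle enzymes fell (median -0.66). MTHFD2, a mitochondrial enzyme of folate metabolism, changed by -1.09 ± 0.06 (adjusted p = 4.71e-07) and MTHFD1, its cytosolic relative, by -0.66 ± 0.07. Of 11 tested genes of de novo purine synthesis 9 fell, with PAICS at -1.15 ± 0.08, PFAS at -0.61 ± 0.10 and PRPS1 at -0.49 ± 0.03. IMPDH1 rose (0.29 ± 0.09), a call lost without Anillin 4N replicate 3 or control 4N replicate 2 (adjusted p = 0.0556 and 0.0646). All 3 tested genes of de novo pyrimidine synthesis fell, namely UMPS (-0.56 ± 0.09), CTPS1 (-0.47 ± 0.10) and CAD (-0.26 ± 0.07), while DHODH and CTPS2 were under 0.5 RPKM in every library and were not tested.

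Among 10 tested enzymes of nucleotide breakdown and pool cleaning, 5 fell and 2 rose, and the share that rose was that of all genes, 20.0%. The uridine phosphorylase UPP1 fell by 0.49 ± 0.12 on the log2 scale and the purine nucleoside phosphorylase PNP by 0.47 ± 0.06. Adenosine deaminase (ADA) rose by 0.58 ± 0.10, at 1.38 RPKM in Anillin 4N and 0.756 in control 4N, and the ecto-nucleotidase NT5E by 0.28 ± 0.06. Of 8 tested nucleoside mono- and diphosphate kinases 3 fell, a share near the 31.5% of all genes, and the list's median log2 change of -0.04 was near the -0.05 of all genes. Those that fell included NME1 (-0.43 ± 0.12) and NME2 (-0.22 ± 0.08). Thioredoxin (TXN), an electron donor of ribonucleotide reductase, fell by 0.50 ± 0.08 and its reductase TXNRD1 by 0.20 ± 0.06, while glutathione reductase (GSR) rose by 0.15 ± 0.03. DCTD (-0.23 ± 0.04) and TK2 (-0.14 ± 0.05) fell among 3 tested mitochondrial kinases and deaminases. UCK1 (-0.42 ± 0.09), HPRT1 (-0.40 ± 0.05) and SLC29A1 (-0.23 ± 0.04) fell among 5 tested genes of the list of transporters and ribonucleoside kinases. That list also holds purine salvage enzymes such as HPRT1. On recovered reads, without the added 0.5 RPKM, the changes of HPRT1, GSR and TK2 were -0.69, 0.24 and -0.22. TK2 lost its call without Anillin 4N replicate 2 or 3 or control 4N replicate 2 or 3 (adjusted p = 0.0881 to 0.122), NME2 without replicate 1 or 2 of Anillin 4N or 1 or 3 of control 4N (0.0744 to 0.119), and TXNRD1 without Anillin 4N replicate 1 or 2 or control 4N replicate 1 (0.0564 to 0.0651). With quantile scaling none of these 3 passed (0.172, 0.407 and 0.0878), and TK2 and NME2 also lost their calls without a filter (0.0754 and 0.0711) and with median-of-ratios scaling (0.221 and 0.0612).

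**Figure D4:**
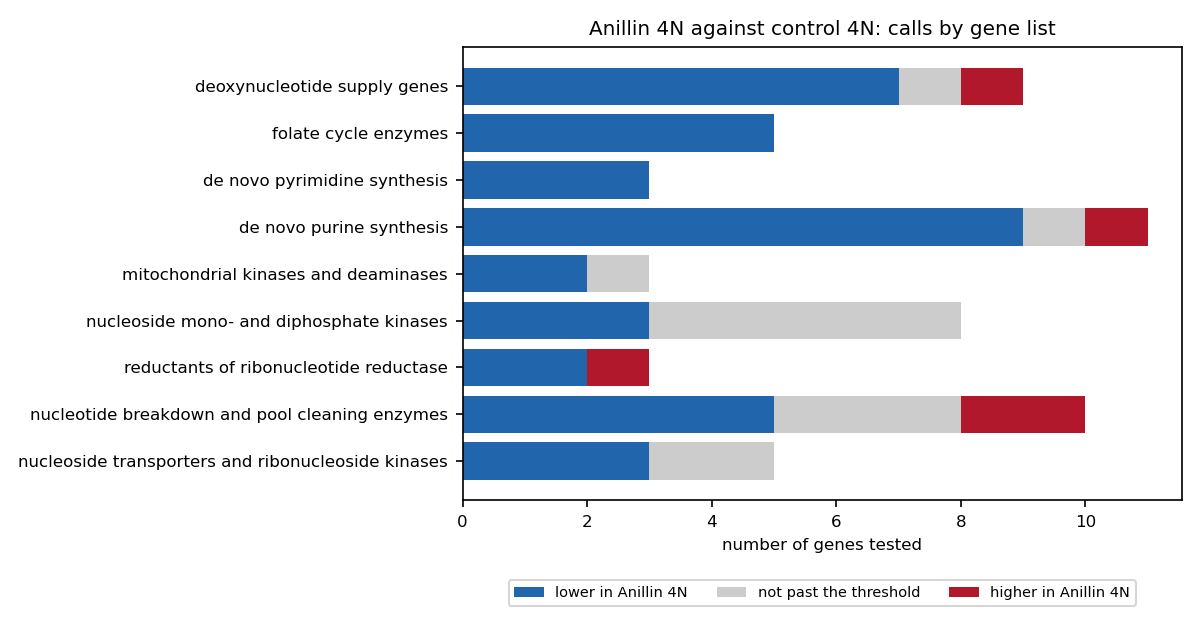
Number of tested genes called lower, not past the threshold or called higher in Anillin 4N against control 4N, for the 9 deoxynucleotide supply genes and 8 lists of related genes. The folate and pyrimidine lists hold only genes called lower, 5 and 3 of them.

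Of the 48 related genes, between Anillin 2N and control 2N, 21 fell and 4 rose, where 17.1% of all genes tested were lower and 11.4% higher. Between control 4N and control 2N 2 fell and 18 rose, where 13.2% were lower and 23.9% higher, and all 5 tested folate enzymes were higher at 4N. Between Anillin 4N and Anillin 2N 1 fell and 47 did not pass, a share near the 3.58% called over all genes.

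Among all genes tested, those whose log2(RPKM + 0.5) followed RRM2 most closely over the 12 libraries included HMGN2 and MACROH2A1 (Pearson r = 0.999 and 0.998). HMGN2 is a nucleosome-binding protein, and its mean RPKM was 62.4 at 4N and 47.4 at 2N after Anillin siRNA, against 168 in control 4N and 93.3 in control 2N. The genes most like RRM2B were RPL23AP7 (r = 0.953), MDM2 (0.921) and LINC00475 (0.909). Those most like SAMHD1 were ANKRD11 (0.883) and 2 features with no name in the tables used (0.877 and 0.864). The libraries fall into 4 groups and share their depth between genes, so these values are descriptions of likeness.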

How the data were processed

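RNA of 12 libraries was analysed from a single table in which the authors deposited RPKM per gene and library. The submitters' processing notes list CASAVA 1.8.2, TopHat2, edgeR and hg19 and give none a role. No source used here states the annotation, the counter or its strand setting. Per the labels, 1 field describes ribo-depleted total RNA and another a stranded mRNA kit.

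Gene symbols came from a gene name table or GENCODE 29 (GRCh38) for all but 5435 identifiers, and spans, exons and overlaps from GENCODE 29, a later build than the one named. RPKM times the span gave whole reads (tolerance 0.01 read) for 29241 genes, and a common divisor gave them for another 9330, which is all 38571 genes above 0. For genes above 0 in few libraries such a divisor is bound to be found. The authors' scaling of library totals lay between 0.951 and 1.04. Pseudogenes of the members had at most 220 reads in a library (RRM2P3).

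Genes with RPKM of at least 0.5 in at least 3 libraries were tested with limma-trend (limma 3.58.1, R 4.3.3) on log2(RPKM + 0.5), with 1 mean per group over all 12 libraries. Two-sided p-values were adjusted with the Benjamini-Hochberg procedure across these 12892 genes, and 0.05 was the threshold. The fit was also run on simulated reads with known changes in few genes and 1 spread for all libraries. These data differ in both, so that run does not show how the fit behaves on them. Ratios were compared with exact permutation tests (scipy 1.17.1), and tables and figures used pandas 2.3.3, numpy 2.4.6 and matplotlib 3.10.9. Alternatives were other pseudocounts, no filter, other scalings, fits of only the compared groups, limma-voom and log2 RPM on recovered reads (at least 10 in at least 3 libraries), and leaving out each library. On recovered reads the authors' scaled totals served as library sizes.

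The members, lists and tests were chosen with earlier results of these data known. All 9 members are named, together with the 3 largest rises and falls past the threshold in each related list between Anillin 4N and control 4N, and the 3 genes most correlated with RRM2, RRM2B and SAMHD1. A few genes that this rule names are not reported here. Replicate numbers follow the order of deposit. Pairs of libraries of 1 group differed by more than sampling noise (chi-square per degree of freedom 2.38 to 14.5).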

Additional observations from a re-analysis of the deposited data

Results flagged for a closer look

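For 6 of the 9 genes the siRNA difference among 4N cells differed from that among 2N cells by the interaction test of limma. Over all genes tested 15.7% passed this test, 10.7% as lower and 4.93% as higher, and all 8 G2 and mitosis genes were called lower. On the log2(RPKM + 0.5) scale the interaction was -0.64 for RRM1, -0.76 for RRM2, 0.33 for RRM2B, -0.35 for DUT, -0.38 for DCK and -0.62 for DTYMK. For DCK it was -0.57 on recovered reads. RRM2B was the only one of these whose 4N difference was above its 2N difference, and it differed in direction from RRM2, the other small subunit of ribonucleotide reductase. The calls of RRM1 and DCK held in all 19 alternative fits (adjusted p at most 0.0297 and 0.00626), that of RRM2B in 15, those of RRM2 and DTYMK in 8 each and that of DUT in 4.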

How the results depend on the processing

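Over the 9 genes, 6 contrasts and all alternative settings, 715 of 801 values kept their direction and side of the threshold, 70 lost a call, 5 gained one and 11 changed sign. In the comparisons of Anillin 4N with control 4N, Anillin 2N with control 2N and control 4N with control 2N, each call of a member held in all 14 alternatives. The count of members called between Anillin 4N and Anillin 2N was 4, fell to 1 without a filter and lay between 1 and 2 when a library was left out. By voom on recovered reads those 4 passed, as did DTYMK and RRM1 (adjusted p = 0.0102 and 0.0352). Over all genes tested 336 were called higher and 125 lower in the main fit, and 305 and 122 of 38571 without a filter. With a library left out 190 to 253 were called higher and 50 to 95 lower. The count of members called in the interaction was 6. It fell to 3 with a pseudocount of 0.1 or quantile scaling and to 2 without a filter, and lay between 2 and 6 when a library was left out. Over all genes tested the interaction was called higher for 636 and lower for 1383 in the main fit. With a library left out these were 370 to 651 and 925 to 1376, and without a filter 601 and 1343 of 38571. The cause of the changed counts was not tested. All sign changes were of differences that did not pass. SAMHD1 ran over -0.0039 to 0.0297 in the 4N comparison and over -0.0050 to 0.0344 between the Anillin fractions when a library was left out. It turned at -0.0039 and -0.0036 (Anillin 4N replicate 3, control 4N replicate 2), at -0.0010 and -0.0050 (Anillin 4N replicate 3, Anillin 2N replicate 1), and at -0.0078 with quantile scaling between the Anillin fractions. RRM2B in the 2N comparison moved to 0.0209 with quantile and 0.0133 with median-of-ratios scaling and to 0.0003 by voom on recovered reads. With a library left out it ran over -0.0467 to 0.0495 there (0.0246 without Anillin 2N replicate 1, 0.0495 without control 2N replicate 2) and over -0.0766 to 0.0196 between the control fractions (0.0196 without control 2N replicate 2). Quantile scaling moved the share of higher genes among all calls from 38.9% to 52.4% (Anillin 4N, control 4N), from 40.0% to 50.7% (Anillin 2N, control 2N), from 72.9% to 61.4% (Anillin 4N, Anillin 2N), from 64.4% to 46.0% (control 4N, control 2N) and from 31.5% to 41.5% (interaction).

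In 1 linear fit of the log2 ratios over all 4 groups, which shares the spread and is not bound by the smallest exact p, 13 of 15 pairs passed an unadjusted threshold of 0.05. The differences were -2.98, -1.85, 1.56 and -1.42 for RRM2 over RRM2B in Anillin 4N against control 4N, Anillin 2N against control 2N, control 4N against control 2N and Anillin 4N against control 2N. For RRM1 over RRM2 they were 0.96, 0.95, -0.45 and 0.51 in the same pairs and -0.44 in Anillin 4N against Anillin 2N. For TK1 over TK2 they were -1.47, -1.27 and 1.08 in the first 3 of these pairs and 0.88 in Anillin 4N against Anillin 2N. No paired analysis was run, because each library has its own sample number and the labels name no shared cultures. Whether 2N and 4N libraries came from the same cultures is unknown, and the fits treat all libraries as independent. RPKM on genomic span places long genes such as DCK and SAMHD1 near the pseudocount, which limits their log2 changes.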
